A study of Mus musculus with 12 samples.

Results

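The histone genes of a mouse embryonic stem cell line were followed over the knockdown of Ino80, which encodes the motor subunit of the INO80 nucleosome remodeller. The members were the array probes whose gene name in the scanner files is that of a clustered histone gene (names starting Hist1h to Hist4h) or of a variant histone gene (names starting H2af, and H3f3a, H3f3b, H1f0 and H1fx). These were 65 of 41174 probes, for 45 of 27962 gene names. Of them, 44 probes belong to 34 clustered genes and 21 probes to 11 variant genes. After dim probes were left out, 58 probes remained for 42 genes, 31 clustered and 11 variant. The clustered genes Hist1h2ac, Hist1h2be and Hist2h2aa2 were not measured above background on both arrays of any group. The members were taken by gene name and not by their values, though earlier results of these data were known when they were chosen.

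The cells were J1, an embryonic stem cell line kept in ESGRO medium and moved to M15 medium for infection. A lentivirus carried either a non-targeting short hairpin RNA (shNT, the control) or one against Ino80 (shIno80), and total RNA was taken 2, 4 or 6 days later (48, 96 or 144 hours). Each of the 6 groups held 2 single-colour arrays, given as biological replicates. Nothing in the labels says how the cultures were made. The p-values therefore speak of the spread among these arrays, part of which may be technical. Bulk RNA does not tell a change in all cells from a change in the mix of cells.

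Histones package DNA: pairs of H2A, H2B, H3 and H4 form the nucleosome core, and linker histone H1 binds where DNA enters and leaves it. Clustered genes supply new chromatin in S phase. Most of their messengers have no poly(A) tail and end in a short stem-loop that is bound by SLBP. Variant genes are expressed through the cell cycle from ordinary polyadenylated messengers, and their products replace the canonical proteins at particular places. H2A.Z and H2A.X, for example, mark promoters and damaged DNA, macroH2A marks silent chromatin, H3.3 marks active genes and H1.0 accumulates in differentiated cells. INO80 is known to act on nucleosomes that contain H2A.Z.

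Signal is given as log2 of the processed intensity minus the 75th percentile of its array, so 0 is that percentile. The percentile lay between 1162 and 1643 intensity units over the 12 arrays, 61.8% to 69.1% of probes were well above background and 0 to 4 were saturated. The deposited records place 6 of the 12 arrays under different samples. Here samples follow the value table. Correlations between arrays were taken over the probes well above background on all 12 arrays. They were 0.9922 to 0.9964 for arrays of the same group and 0.9251 to 0.9895 for other pairs. Ino80, listed under its older name Inoc1, stood at 25.2%, 20.3% and 23.5% of shNT at days 2, 4 and 6. These values were known when the value table was chosen, so they are no independent check of the labels. Each day was 1 slide, and position on the slide goes with the hairpin, so position and hairpin cannot be told apart.

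Many clustered genes encode identical or nearly identical proteins, and 12 of the 31 reported clustered probes list more than 1 RefSeq gene in the array's own annotation. Some probes of different genes share long stretches of letters. They are printed because the signals of such probes are not separate measurements, and the H2A, H2B and H4 counts below rest partly on them. The letters are from the array files, 5′ to 3′, and capitals mark the run common to every probe of a set. Positions are those in the scanner files, on the mouse build mm7. The first set is from H2A genes, with a common run of 29 bases, at chr13:23300592-23300651, chr13:22900228-22900287 and chr6:136833216-136833275, all on the plus strand.
Hist1h2aa: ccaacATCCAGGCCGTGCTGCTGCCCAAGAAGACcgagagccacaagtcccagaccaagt
Hist1h2af: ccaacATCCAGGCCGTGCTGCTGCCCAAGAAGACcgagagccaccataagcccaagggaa
H2afj: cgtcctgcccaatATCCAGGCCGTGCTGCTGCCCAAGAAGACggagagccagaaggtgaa

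H2afj is counted among the variants, yet its reported probe shares this run with the clustered H2A genes. A second H2A set shares 26 bases. Its probes lie at chr13:21153148-21153207 and chr13:21119757-21119816 on the minus strand and, for the other Hist1h2af probe, at chr13:22899920-22899979 on the plus strand.
Hist1h2ai: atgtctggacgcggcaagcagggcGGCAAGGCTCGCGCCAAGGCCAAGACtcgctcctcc
Hist1h2ak: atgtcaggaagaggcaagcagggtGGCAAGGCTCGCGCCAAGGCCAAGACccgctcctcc
Hist1h2af: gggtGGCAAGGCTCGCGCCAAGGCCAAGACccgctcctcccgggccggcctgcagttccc

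The H2B set also shares 26 bases, at chr13:21402048-21402107 and chr13:21088259-21088318 on the plus strand and at chr11:59035740-59035799 on the minus strand. RefSeq now names Hist3h2bb as a pseudogene.
Hist1h2bk: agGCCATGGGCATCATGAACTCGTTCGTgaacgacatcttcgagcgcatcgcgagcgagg
Hist1h2bm: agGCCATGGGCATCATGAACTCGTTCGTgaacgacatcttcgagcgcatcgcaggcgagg
Hist3h2bb: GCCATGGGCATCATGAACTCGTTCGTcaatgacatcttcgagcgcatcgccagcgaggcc

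The H4 set shares 29 bases, at chr13:22947598-22947657 on the plus strand and at chr13:22917373-22917432 and chr3:96136980-96137039 on the minus strand.
Hist1h4d: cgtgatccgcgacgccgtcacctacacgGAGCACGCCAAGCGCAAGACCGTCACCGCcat
Hist1h4f: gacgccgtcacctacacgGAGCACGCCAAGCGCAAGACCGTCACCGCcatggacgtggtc
Hist2h4: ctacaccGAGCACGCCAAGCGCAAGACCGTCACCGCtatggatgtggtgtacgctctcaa

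The day 6 log2 fold changes of shIno80 over shNT were −0.50 to −0.48 in the first H2A set, −0.61 to −0.56 in the second, 0.67 to 0.70 in the H2B set and −0.42 in the H4 set at both ends. Hist1h4a and the other Hist1h4d probe form a further set, not printed, that spread wider, from −0.59 to −0.39 at day 6 and −0.51 to −0.13 at day 4. The H2A and H4 sets lay below 0 and the H2B set above it.

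At day 2 few histone genes had moved. Of the 31 clustered genes, Hist1h1c was higher and 0 were lower by limma (1 lower at an unadjusted p under 0.05), with a median log2 fold change of −0.05. Of the 11 variants, H2afy3 was lower and 0 were higher (0 also at an unadjusted p under 0.05), with a median of −0.25. Among all 19341 genes tested, 12.4% were called at this day, 6.22% higher and 6.21% lower, around a median of 0.02. With 1 call in each set, the counts are too small to set against those shares.

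By day 6 more histone genes had moved. Of the clustered genes, 7 were higher and 15 lower, with a median of −0.39, and of the variants 0 were higher and 9 lower, with a median of −0.73. For comparison, 50.4% of all genes were called at day 6, 21% higher and 29.5% lower, around a median of −0.14. At day 4 the clustered genes stood at 7 higher and 2 lower and the variants at 0 higher and 3 lower, where 42.2% of all genes were called, 20.9% higher and 21.3% lower. For the variants, 0 were higher at an unadjusted p under 0.05 at days 4 and 6 either. The share of clustered genes higher at day 6 was thus near that of all genes. The difference between clustered and variant genes was not tested.

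**Figure D1:**
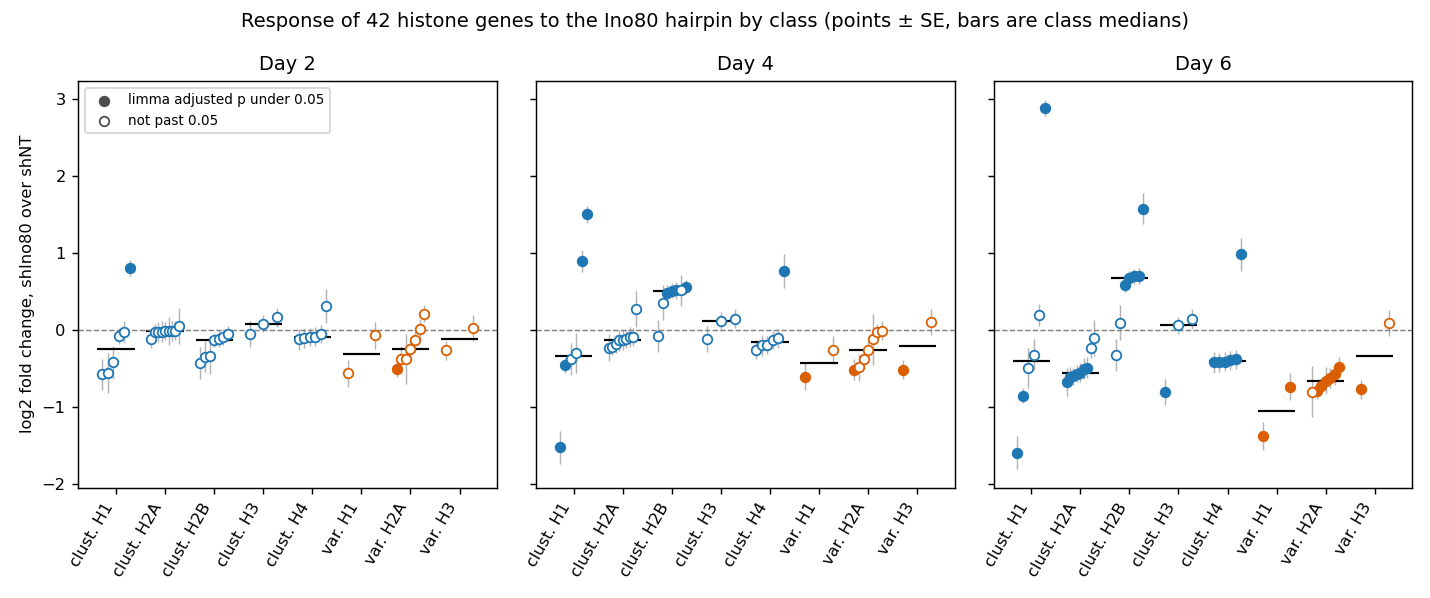
Log2 fold change of shIno80 over shNT (y axis) for the 42 histone genes, ordered by class (x axis), at days 2, 4 and 6; points are genes with their standard errors, filled where limma's adjusted p is under 0.05, and black bars are class medians. At day 6 the clustered H2B median is 0.67, the clustered H2A median −0.56 and the variant H2A median −0.66, while Hist1h1c stands apart at 2.89.

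Among the reported probes, those of linker histone genes gave the largest rise and the largest fall at day 6. Hist1h1c, which encodes H1.2 (probe at chr13:23105951-23106010), read −0.27 and −0.04 on the day 2 shNT arrays and 0.67 and 0.62 on the shIno80 arrays. Day 4 gave −0.02 and 0.11 (shNT) and 1.54 and 1.55 (shIno80), and day 6 gave −0.84 and −0.86, then 2.07 and 2.00. The groups did not overlap on any day, shIno80 was higher each time, and shNT was lowest at day 6. On the log2 scale shIno80 exceeded shNT by 0.80, 1.5 and 2.89 (SE 0.10 each, n = 2 arrays per group here and below), a rise of 2.82-fold at day 4 and 7.40-fold at day 6 (limma adjusted p = 0.00325, 2.27e-05 and 1.24e-06). The rise at days 4 and 6 passed under the other background correction, both other scalings, the deposited value table and with any single array left out. The day 2 rise did not pass with normexp background correction or in a fit of that day's arrays alone (adjusted p = 0.185 and 0.147).

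Hist1h1b, which encodes H1.5 (chr13:21146043-21146102), moved the other way. On day 2 it read 1.87 and 1.95 in control cells and 1.39 and 1.58 after knockdown. On day 4 both control arrays read 1.99 and the knockdown arrays 0.81 and 0.11, and on day 6 the controls read 1.70 and 1.93 and the knockdowns 0.33 and 0.11. The shIno80 arrays were below shNT on each day, but those of day 4 lay far apart from each other. The log2 fold change of −0.42 at day 2 did not pass, and those of −1.53 and −1.60 at days 4 and 6 did (SE 0.21, limma adjusted p = 0.257, 0.000656 and 0.000394). The fall was 2.88-fold and 3.03-fold at those days. Its calls at days 4 and 6 also held under the same alternatives and with any single array left out.

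Hist1h1a, which encodes H1.1, fell as well, from −1.48 and −1.54 in shNT to −1.90 and −2.04 in shIno80 at day 4, and from −1.48 and −1.51 to −2.29 and −2.42 at day 6. The groups did not overlap on either day. The differences of −0.46 and −0.86 passed (SE 0.10, limma adjusted p = 0.00615 and 0.0002). Without the second shIno80 array of day 4 the fall of that day had an adjusted p of 0.052, and neither fall passed with normexp (adjusted p = 0.573 and 0.317). Hist1h1d, for H1.3, was higher at day 4, at −1.55 and −1.59 in shNT against −0.56 and −0.79 in shIno80. At day 6 the groups overlapped, at −1.32 and −1.40 against −1.0 and −1.34. The log2 fold change was 0.89 at day 4 (limma adjusted p = 0.00136) and 0.19 at day 6 (adjusted p = 0.305). Hist1h1e, for H1.4, and the testis gene Hist1h1t had lower shIno80 signals on each day, with log2 fold changes between −0.58 and −0.30, none of which passed limma's test. The 6 clustered H1 genes therefore had members at both ends of the range of the histone genes. At day 6, 1 was higher and 2 lower, shares near the 21% and 29.5% of all genes.

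Of the 7 clustered H2B genes measured, 4 were higher at day 4 and 5 at day 6, beside 20.9% and 21% of all genes. Of those calls 3 on each day come from the probes with shared letters. On the other side, 0 were lower on any day (0 also at an unadjusted p under 0.05), with medians of −0.13, 0.51 and 0.67. The control arrays read Hist1h2bc (chr13:23058152-23058211) at −0.12 and 0.25 on day 2, 0.27 and 0.59 on day 4 and −0.37 and −0.18 on day 6. The shIno80 arrays read −0.51 and −0.05, then 0.91 and 0.98, then 1.43 and 1.17. The groups overlapped at day 2 and were apart afterwards. Its log2 fold change was −0.35, 0.51 and 1.57 (SE 0.20), of which that of day 6, a 2.97-fold rise, passed (limma adjusted p = 0.328, 0.0738 and 0.000325).

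Hist1h2bk, with the shared probe printed above, read 0.95 and 1.08 in shNT against 1.57 and 1.49 in shIno80 on day 4, and on day 6 0.88 and 0.93 against 1.69 and 1.52. Both differences, 0.51 and 0.70, passed (SE 0.11; limma adjusted p = 0.00535 and 0.000855), and its second probe, 66 bases away, gave 0.59 and 0.82. Hist1h2ba, a testis H2B, went from −0.29 and −0.13 to 0.37 and 0.32 at day 4 and from −0.24 on both shNT arrays to 0.37 and 0.31 at day 6. Both differences passed (0.56 and 0.58, SE 0.09, limma adjusted p = 0.00163 and 0.00102). Its probe lists 1 RefSeq gene. Hist2h2be (0.09) and Hist3h2ba (−0.33) did not pass at day 6. With normexp, Hist1h2bk, Hist1h2bm, Hist3h2bb and Hist1h2bc kept their day 6 calls and Hist1h2ba did not (adjusted p = 0.0501). At day 4 the H2B calls other than that of Hist1h2ba also did not pass with median scaling.

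Of the 9 clustered H2A genes, 0 were called at day 2 and at day 4 (0 also at an unadjusted p under 0.05). At day 6, 7 were lower, beside 29.5% of all genes, and 2 did not pass, with a median of −0.56. Hist1h2ai read 3.30 and 3.25 on the day 6 control arrays and 2.64 and 2.69 after knockdown, a log2 fold change of −0.61 (SE 0.12, limma adjusted p = 0.00274). At day 4 it was 3.19 and 3.28 against 3.13 and 2.97. Hist1h2ab, whose probe lists 1 RefSeq gene, was at 0.56 and 0.75 against 0.16 and −0.19 at day 6, with the shIno80 arrays below and apart. Its log2 fold change was −0.67 (SE 0.18, limma adjusted p = 0.0142). Without the second shNT or the second shIno80 array of day 6 its adjusted p was 0.0789 and 0.0982. Hist1h2aa, Hist2h2ac and Hist3h2a gave −0.50, −0.57 and −0.61 at day 6. Hist2h2aa1 (−0.24, limma adjusted p = 0.122) and Hist1h2ae (−0.11) did not pass. The Hist2h2ac probe lists 4 RefSeq genes and the Hist1h2aa probe shares letters with Hist1h2af, so these falls cannot be placed by gene cluster.

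Clustered H4 genes were lower at day 6 in 5 of 6 cases, with reported probes at −0.42 to −0.39, where 29.5% of all genes were lower. A second Hist1h4d probe, 158 bases away and listing 1 RefSeq gene, gave −0.51 at day 4 and −0.59 at day 6 and passed on both days in the fit of all probes, while the reported one did not pass at day 4. Hist1h4i was the exception. Its control arrays read 1.25 and 1.50 on day 4 and 0.28 and 0.30 on day 6, and its shIno80 arrays 2.17 and 2.10, then 1.39 and 1.14. The shIno80 arrays were above shNT on both days (0.76 and 0.98, SE 0.22, limma adjusted p = 0.0226 and 0.00621). Leaving out the first shNT array or either shIno80 array of day 4 took that day's adjusted p to 0.0754 to 0.126. Its probe was designed from an expressed sequence tag and its listed span on mm7 covers fewer bases than the probe has, so its target is uncertain.

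Of the 3 clustered H3 genes, Hist1h3a was lower at day 6, where 29.5% of all genes were lower. It read −1.86 and −1.93 in shNT against −2.50 and −2.91 in shIno80 (−0.81, SE 0.17, limma adjusted p = 0.00432). Hist1h3d and Hist2h3c1, whose probes each list 4 RefSeq genes, gave 0.06 and 0.14 and did not pass. The H3 median changed sign with the processing, from 0.06 to −0.04 with median scaling and −0.01 with normexp, and to 0.31 and 0.30 with quantile normalization and the value table.

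How far below shNT the clustered H2A and H4 genes lay depended on how arrays were put on one scale. Of the 15 clustered genes called lower at day 6, 15 were called lower with median scaling, 7 with quantile normalization, 6 with the deposited value table and 1, Hist1h1b, with normexp background correction. Without the second shNT or the second shIno80 array of day 6 the count of clustered genes lower was 8. Of the 9 variants called lower, 9, 6, 6 and 3 were so with median scaling, quantile normalization, the value table and normexp, the 3 with normexp being H1f0, H2afv and H3f3a. At day 4 normexp left 1 of the 7 higher and 1 of the 2 lower clustered calls, Hist1h1c and Hist1h1b, and 0 of the 3 variant calls. The H2A median was −0.65, −0.21, −0.33 and −0.62 under these alternatives, in the same order, and the H4 median −0.50, −0.26, −0.15 and −0.43. Over all genes the value table moved the share of higher calls at day 6 from 41.6% to 62% and the median change from −0.14 to 0.06, and normexp moved that median to 0.10. Normexp called 2905 of all genes at day 6 in place of 9757, and 1690 in place of 8157 at day 4. Median scaling moved the share of higher calls at day 4 from 49.5% to 39.1%. Relative to the median of all genes, H2A lay at −0.42 as scaled here, −0.12 with quantile normalization, −0.39 with the value table and −0.72 with normexp. The gap between the H2B and H2A medians does not depend on a factor per array. It was 1.23 at day 6, with 0.94 to 1.21 for quantile normalization, normexp and the value table, and was not tested.

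**Figure D2:**
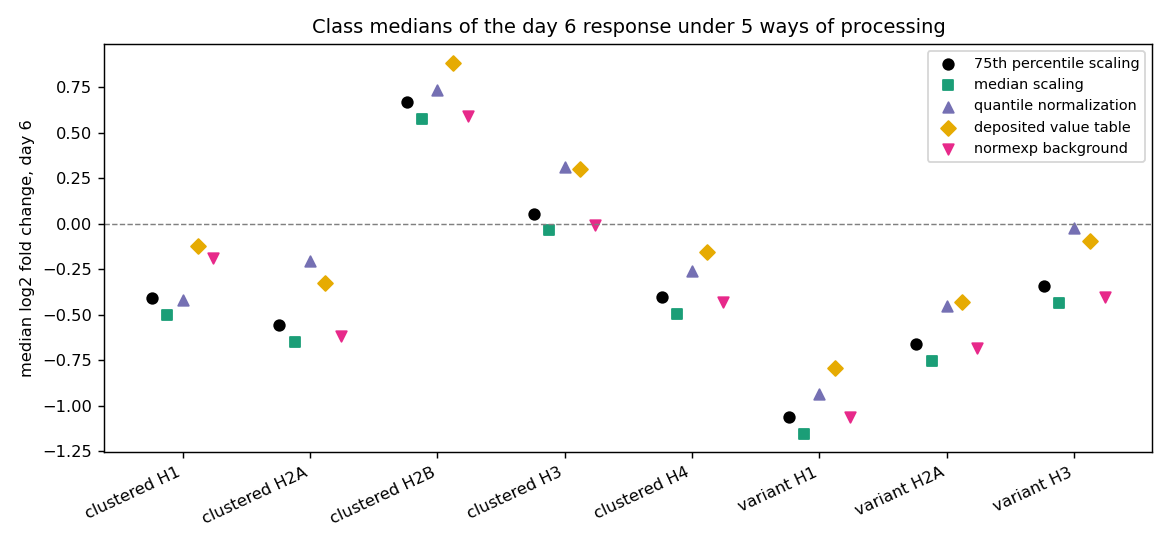
Median log2 fold change of each histone class at day 6 (y axis) under 5 ways of processing the arrays (symbols). Clustered H2B medians lie between 0.58 and 0.88 and clustered H2A medians between −0.65 and −0.21, while the clustered H3 medians fall on both sides of 0.

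**Figure D3:**
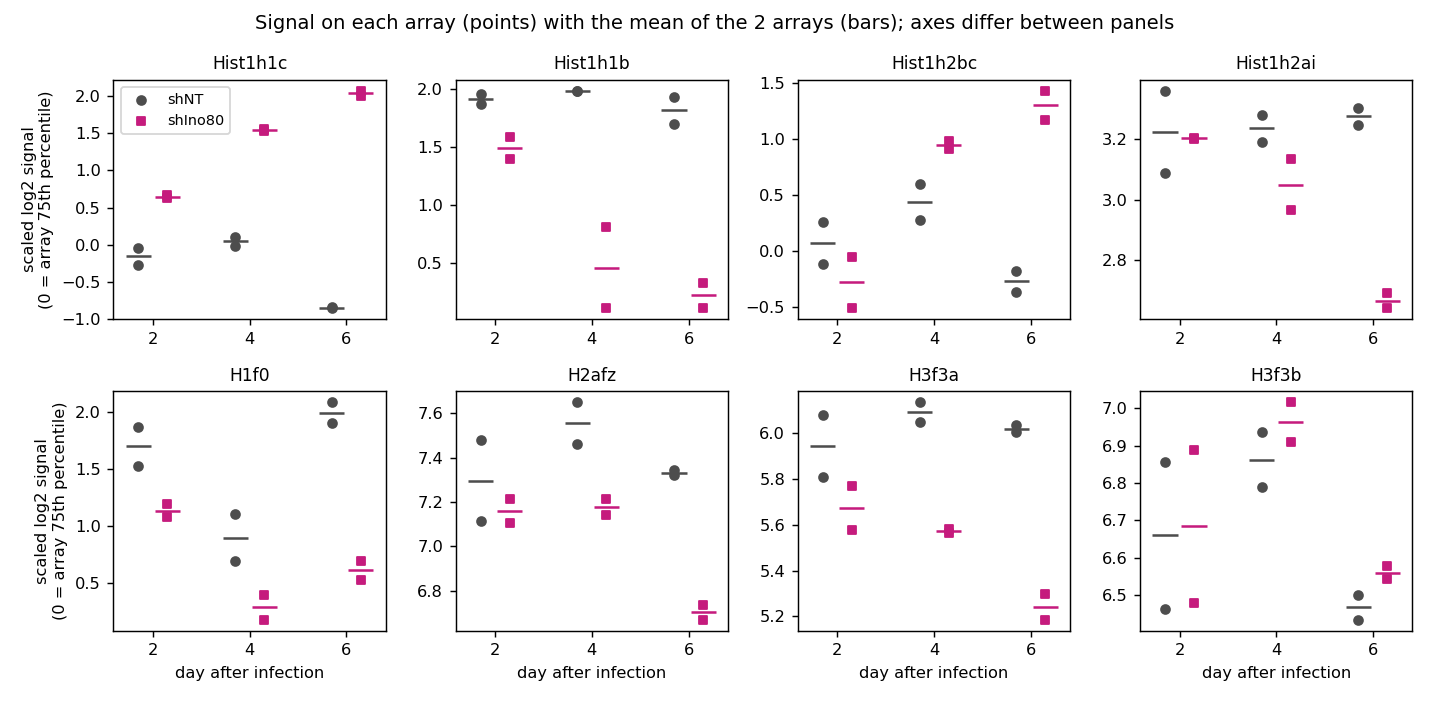
Scaled log2 signal (y axis, 0 is the array's 75th percentile) on each array at days 2, 4 and 6 (x axis) for 8 histone genes; circles are shNT, squares shIno80 and bars the mean of the 2 arrays, with a different y axis in each panel. Hist1h1c ends at 2.07 and 2.00 in shIno80 against −0.84 and −0.86 in shNT at day 6, Hist1h1b and H1f0 end lower in shIno80, and H3f3b differs by 0.09 at day 6, which did not pass.

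Among the variants, the linker histone genes fell. H1f0, which encodes H1.0, read 1.87 and 1.53 on the control arrays of day 2, 1.10 and 0.69 on day 4 and 1.90 and 2.08 on day 6. After knockdown it read 1.19 and 1.08, then 0.39 and 0.17, then 0.53 and 0.69. The shIno80 arrays were the lower ones each time, and both groups dipped at day 4, where day and slide cannot be told apart. The differences were −0.57, −0.61 and −1.38 on the log2 scale (SE 0.18; limma adjusted p = 0.0769, 0.0236 and 0.000325). The day 6 value is a 2.61-fold fall, and the other H1f0 probes gave −1.56 and −1.59. Those other probes start 6 bases apart and share a run of 28 bases, so they are not separate measurements. The day 4 call was lost without its first shNT or second shIno80 array (adjusted p = 0.156 and 0.137), and with normexp. H1fx, for H1.10, was at 5.09 and 4.74 against 4.34 and 4.01 at day 6 (−0.74, SE 0.18, limma adjusted p = 0.00857). Without the first shNT or second shIno80 array of that day the adjusted p was 0.0597 and 0.063, and with normexp 0.104. The reported H1fx probe lists 0 RefSeq genes and no position on mm7, so its target is uncertain. The other H1fx probe, which lists 1 RefSeq gene, gave −1.92 at day 6.

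Both genes for H2A.Z fell at day 6. H2afz, for H2A.Z.1, read 7.11 and 7.48, 7.46 and 7.65, and 7.32 and 7.34 on the control arrays of days 2, 4 and 6. The shIno80 arrays read 7.11 and 7.21, 7.21 and 7.14, and 6.74 and 6.67. The groups overlapped at day 2 and were apart at days 4 and 6. The log2 fold change was −0.38 at day 4 (limma adjusted p = 0.0527) and −0.63 at day 6 (SE 0.13, adjusted p = 0.00483). H2afv, for H2A.Z.2, had control readings of 6.34 and 6.61, 6.51 and 6.60, and 6.53 and 6.57, and knockdown readings of 6.64 and 6.73, 6.30 and 6.29, and 5.77 and 5.74. Its shIno80 signals went from above shNT at day 2 to below it at day 6 (0.21, −0.26 and −0.80, SE 0.11), and the last passed (limma adjusted p = 0.000484). H2afv kept its day 6 call under normexp, both other scalings and the value table, while H2afz did not pass with normexp (adjusted p = 0.109) or with quantile normalization.

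H2afx, for the damage-marking H2A.X, read 6.87 and 6.98 in control cells on day 4 and 6.63 and 6.62 on day 6, against 6.48 and 6.33, then 6.06 and 6.02, after knockdown. Both differences passed (−0.52 and −0.58, SE 0.14, limma adjusted p = 0.015 and 0.00757). The day 4 call was lost without the second shNT or second shIno80 array of that day (adjusted p = 0.0849 and 0.0948), and the day 6 call with normexp, quantile normalization or the value table. H2afj, for H2A.J, was at 7.72 and 7.79 against 7.29 and 7.26 at day 6 (−0.48, SE 0.13, limma adjusted p = 0.0137). It lost its call under the same settings as H2afx at day 6, and without the second shNT or either shIno80 array (adjusted p up to 0.0691). A probe 1238 bases further on gave −0.36 at day 6.

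H3f3a and H3f3b, which both encode the replacement histone H3.3, did not move alike. H3f3a read 5.81 and 6.08, 6.05 and 6.13, and 6.00 and 6.03 on the control arrays of days 2, 4 and 6, and 5.58 and 5.77, 5.58 and 5.56, and 5.30 and 5.18 on the shIno80 arrays. Its shIno80 arrays were the lower ones on each day. Differences of −0.27, −0.52 and −0.78 resulted (SE 0.12), past the threshold at days 4 and 6 (limma adjusted p = 0.2, 0.00847 and 0.000894). Its other 2 probes, which share a run of 24 bases and are not separate measurements, gave −0.74 and −0.77 at day 6. Without the second shNT array of day 4 that day's adjusted p was 0.0542. H3f3b was at 6.43 and 6.50 against 6.58 and 6.54 at day 6. The groups lay close together without overlapping, with a log2 fold change of 0.09 (SE 0.17, limma adjusted p = 0.683), and 0.02 and 0.10 at the earlier days. Its second probe gave 0.35 at day 6 (adjusted p = 0.15). The difference between the genes was not tested.

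Of the 3 macroH2A names, 2 were lower at day 6 by their reported probes, beside 29.5% of all genes. H2afy, for macroH2A1, was at 2.77 and 2.94 in shNT against 2.17 and 2.22 in shIno80 at day 6 (−0.66, SE 0.18, limma adjusted p = 0.0136). It did not pass with normexp or the value table, nor without the second shNT or first shIno80 array of day 6 (adjusted p = 0.0745 and 0.0632). H2afy2, for macroH2A2, was at −2.15 and −1.99 against −2.98 and −2.77 at day 6 and did not pass (−0.80, SE 0.33, limma adjusted p = 0.073). H2afy3, a further macroH2A name, was lower at day 2 (2.44 and 2.22 against 1.87 and 1.76) and day 6 (2.45 and 2.54 against 1.79 and 1.74), but not at day 4 (1.50 and 1.41 against 1.39 and 1.45). This gave differences of −0.51, −0.03 and −0.73 (SE 0.11; limma adjusted p = 0.0188, 0.835 and 0.000633). The day 6 fall did not pass with normexp (adjusted p = 0.0787). The day 2 fall did not pass with normexp, with the value table, or without the first shNT or either shIno80 array of day 2 (adjusted p = 0.0638, 0.053 and 0.0946).

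H2afy carried the largest disagreement between probes of one gene. Both 60-base probes concerned are printed here because they report opposite changes, with positions on mm7, minus strand. The first, at chr13:55172484-55172543, is the reported one, designed from the RefSeq messenger. The second, at chr13:55177569-55177628, was designed from another complementary DNA and lies 5085 bases away within the gene.
H2afy, reported probe: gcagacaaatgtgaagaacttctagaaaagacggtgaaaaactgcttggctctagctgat
H2afy, dim probe: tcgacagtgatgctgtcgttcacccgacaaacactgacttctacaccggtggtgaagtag

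On the control arrays the dim probe read −6.59 and −7.01 on day 2, −8.08 and −7.93 on day 4 and −6.78 and −6.56 on day 6. On the shIno80 arrays it read −6.69 and −6.57, then −5.52 and −6.00, then −2.15 and −2.04. It was not well above background on any shNT array, on 1 shIno80 array at day 4, and on both shIno80 arrays at day 6. The dim probe was kept through the shIno80 arrays of day 6 alone, so its rise is given as a bound without a test. It was at least 14.2-fold at day 6 and at least 1.26-fold at day 4. The bound sets the mean of both shIno80 arrays, of which 1 was well above background at day 4, against the lowest signal counted as above background. The third probe, 20949 bases from the reported one, gave −0.22 at day 6 (limma adjusted p = 0.261). Averaging the probes turned the sign of the gene's day 6 value to 1.23. The signals of different probes are not on one scale, so the share of H2afy messenger that the dim probe represents cannot be read from them. Over all kept probes, 41.7% were called at day 4 and 50% at day 6.

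**Figure D4:**
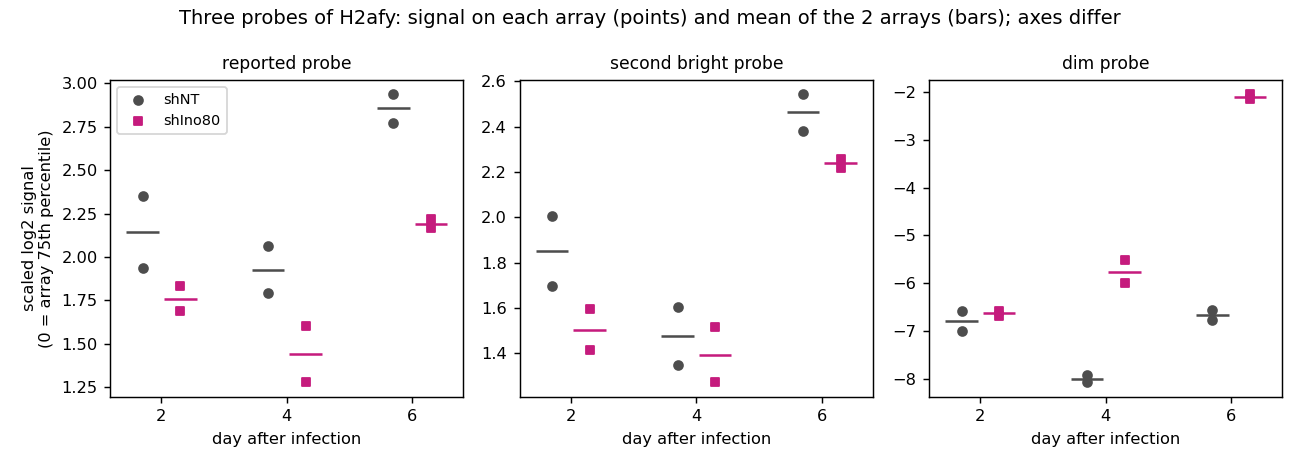
Scaled log2 signal (y axis) of the 3 H2afy probes on each array at days 2, 4 and 6 (x axis); circles are shNT, squares shIno80, bars the mean of the 2 arrays, and the y axes differ. The dim probe reaches −2.15 and −2.04 in shIno80 at day 6, while the reported probe is lower in shIno80 on each day.

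Other genes also had probes that parted. A second Hist1h1d probe, 1751 bases further along chromosome 13, was kept through the shIno80 arrays of days 4 and 6 alone. It was not well above background in shNT, so its rise at day 6 is given only as a bound, at least 3.18-fold. The reported Hist1h1d probe did not pass at day 6. A Hist3h2a probe 567 bases further on gave 0.12 at day 6 (adjusted p = 0.694) against −0.61 at the reported one. The second Hist1h2bc probe is listed 1854818 bases from the first. At day 6 it was well above background in shIno80 alone and at least 1.5-fold higher. The second H2afz probe maps to chromosome 6 while H2afz lies on chromosome 3, and none of its 12 readings was well above background.

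The stem-loop at the end of clustered histone messengers can be found in the probes themselves. The hairpin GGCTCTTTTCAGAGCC was searched for, whole or as a run of at least 10 of its bases anywhere in a probe. Such a run was found in 3 of the 65 member probes and in 35 of all 41174 (0.085%). The windows, at most 30 bases, are shown with the hairpin bases in capitals.
Hist1h3a: aaccaaaGGCTCTTTTCAGAGCCaca
Hist1h2ab: aaacaaaGGCTCTTTTCA
Hist1h2ae: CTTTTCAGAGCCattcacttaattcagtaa

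Hist1h3a and Hist1h2ab, whose probes reach into the hairpin from the coding side, were lower at day 6, as described above. The Hist1h2ae probe has 48 bases after the hairpin and therefore reads sequence beyond the usual messenger end. It read −2.15 and −2.10 on the day 6 control arrays and −2.0 and −2.48 after knockdown (−0.11, limma adjusted p = 0.725). The arrays were labelled with the Quick Amp kit. The part of labelling in these levels was not tested. Nor was it tested how far the clustered signals follow the messengers that lack a poly(A) tail.

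Promoters of the clustered genes were compared by letters only. RefSeq windows on GRCm38.p6, from 250 bases before to 50 after the start, were matched to 29 clustered genes (30 windows) and 9 variants. CCAAT, read on both strands as every motif here, was in 90% of the clustered windows, 66.7% of the variant windows and 37.4% of all 32851 windows. TATAAA was in 63.3%, 11.1% and 13.6%. ATTTGCA, part of the octamer that is known from H2B promoters, was in 33.3%, 11.1% and 4.02%, and in 66.7% of the H2B and 54.5% of the H2A windows. TTTGGCG, one form of an E2F site, was in 0% of the clustered, 11.1% of the variant and 1.56% of all windows. None of these motifs contains another. CCAAT was in 100% of the H2A and 100% of the H2B windows. Whether any of these motifs has a part in the responses was not tested. The windows of Hist1h2aa and Hist1h2ba overlap, so their matches are not separate. Windows of Hist1h2ac, Hist1h2be and Hist2h2aa2, whose expression was not measured, are counted too.

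The promoters of Hist1h1c and Hist1h1b are printed as those of the clustered genes with the largest rise and the largest fall. Each is the 250 bases before the start, from RefSeq on GRCm38.p6, with CCAAT (or ATTGG, its other strand) and TATAAA in capitals. That of Hist1h1c, now H1f2, is chr13:23738557-23738806 on the plus strand and that of Hist1h1b, now H1f5, is chr13:21780626-21780875 on the minus strand.
Hist1h1c: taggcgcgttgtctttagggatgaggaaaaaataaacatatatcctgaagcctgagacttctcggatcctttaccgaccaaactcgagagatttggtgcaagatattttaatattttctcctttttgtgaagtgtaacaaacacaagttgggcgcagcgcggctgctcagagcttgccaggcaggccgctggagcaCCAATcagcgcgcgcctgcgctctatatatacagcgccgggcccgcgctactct
Hist1h1b: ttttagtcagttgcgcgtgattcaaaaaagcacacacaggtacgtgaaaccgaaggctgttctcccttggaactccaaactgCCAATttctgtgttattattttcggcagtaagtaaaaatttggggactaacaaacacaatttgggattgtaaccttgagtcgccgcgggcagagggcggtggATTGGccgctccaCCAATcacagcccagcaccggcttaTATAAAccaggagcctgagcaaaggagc

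Both hold CCAAT, once in Hist1h1c and at 3 places in Hist1h1b, and TATAAA is in that of Hist1h1b alone, 28 bases before the start. A missing match says only that these letters are not in the window.

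Genes that make, process and place histones were read from lists. Of 16 genes for histone messenger processing and transcription, 7 were lower at day 4, beside 21.3% of all genes, and 6 at day 6, beside 29.5%. The other 10 did not pass at day 6, with a median of −0.24. The largest fall was in Lsm11, a part of the U7 particle that cuts histone messengers (−1.23, SE 0.10). Coil, the coilin of Cajal bodies, fell by 1.16 on the log2 scale, and Slbp, for the stem-loop binding protein, by 0.36 (limma adjusted p = 0.0276). Npat, the activator at histone loci, was lower at days 2 and 4 (−0.65 and −0.59) and did not pass at day 6 (−0.42, limma adjusted p = 0.0629).

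Of 28 histone chaperone genes, 5 were higher and 9 lower at day 6, shares near the 21% and 29.5% of all genes. Nasp, which holds soluble H3 and H4, fell most (−1.17, SE 0.14), and Chaf1b of the replication-coupled assembly factor CAF-1 and Asf1b fell by 0.88 and by 0.43. The largest rise was that of Spty2d1 (1.11, SE 0.18, limma adjusted p = 0.00105). Of 7 genes for the exchange of H2A.Z, 5 were lower at day 6, beside 29.5% of all genes, and 2 did not pass. Anp32e, a chaperone that removes H2A.Z, fell by 0.96 and Znhit1, a subunit of the complex that deposits it, by 0.78 (limma adjusted p = 0.000253 and 0.000172). Cenpa, the centromeric H3 outside the member rule, fell by 1.13, by 1.24 and by 1.21 at days 2, 4 and 6.

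Markers of proliferation and of cell type moved over the same days. The counts below stand beside 21% of all genes higher and 29.5% lower at day 6. Of 20 S phase genes, 16 were lower and 1 higher at day 6, with a median of −0.86, and their summed scaled signal was 595.8 to 632.1 in shNT and 350.9 to 352.7 in shIno80. Of 11 measured embryonic stem cell markers, 11 were lower at day 6 (median −1.82). The summed signal of those markers went from 675.4 to 739.6 in shNT to 273.4 to 283.2 in shIno80. Of 9 trophectoderm markers, 8 were higher and 1 lower at day 6 (median 4.71), with summed signals of 25.8 to 29.2 in shNT and 510.3 to 533 in shIno80. Of 13 fibroblast markers, 6 were higher and 2 lower, summing to 1.97 to 2.28 in shNT and 4.25 to 4.48 in shIno80. Among these 13, 2 were well above background on neither shNT array of day 6, and 1 on neither shIno80 array. Whether these shifts have a part in the histone changes was not tested.

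The response itself changed between days for a few members. From day 2 to day 4, 7 clustered genes and 0 variants had a changed response by limma (1 variant higher and 1 lower at an unadjusted p under 0.05), where 15.2% of all genes did, 8.14% upward and 7.09% downward. The changes were upward in Hist1h1c, Hist1h1d and the H2B genes Hist1h2ba, Hist1h2bk, Hist1h2bm and Hist3h2bb, and downward in Hist1h1b. With median scaling and with normexp the count was 0, and with any single array left out it was 1 to 6. It was 3 without the second shNT or first shIno80 array of day 2, 4 without the second shIno80 array of day 2, 1 without the first shNT array of day 4 and 2 without any other array of day 4. From day 4 to day 6, where 3.81% of all genes changed, 1.56% upward and 2.25% downward, Hist1h1c did so by a further 1.39 (limma adjusted p = 0.00398), and so did H2afy3, by −0.70 (adjusted p = 0.0447). The Hist1h1c change did not pass with normexp (adjusted p = 0.598). That of H2afy3 did not pass with either other scaling, normexp or the value table, nor without any 1 array of days 4 and 6 (adjusted p = 0.0962 to 0.158) or either shIno80 array of day 2 (adjusted p = 0.0623).

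With the arrays placed under samples as the scanner files are attached, limma called 0 of the 42 genes on any of the days. At an unadjusted p under 0.05, 1 was higher and 1 lower at day 2 and 0 at days 4 and 6. In that arrangement 0 of 19152 genes passed at day 6, and 453 had an unadjusted p below 0.05. By the value table, each group of that arrangement mixes arrays of both hairpins. Few calls would then follow if the value table is right, so these counts cannot decide which record is right.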

How the data were processed

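Gene expression was measured on 12 single-colour Agilent arrays. The deposited scanner files hold intensity values from Feature Extraction 9.5.3.1, per the file headers, background-subtracted and not scaled between arrays. The authors' deposited value table holds log2 values, whose columns named the samples. Log2 intensity was reduced by each array's 75th percentile. Spots that the scanner software marked as outliers were dropped (125 probes). The 28654 probes kept were above background on both arrays of some group. A gene was its brightest probe (19341 genes). limma 3.58.1 in R 4.3.3 (lmFit, eBayes; degrees of freedom 6 residual, 2.19 prior) fitted a mean per group over all 12 arrays. Adjustment was by Benjamini-Hochberg, with all genes of a contrast, and the threshold was 0.05. The fit was also run on simulated data with 200 changed genes. These are far fewer than were called here at days 4 and 6, and no scaling was simulated, so that run does not test these calls. An "at least N-fold" value divides the bright group's mean by a floor, the lowest signal that counts as above background on an array, or the probe's own signal where larger. Named were every kept variant and, on each day, up to 4 clustered genes with the largest rise and up to 4 with the largest fall past the threshold. Named of the processing, chaperone and H2A.Z lists were those with the largest rise and fall at day 6. Other genes named were chosen after their values were seen. The members and lists were chosen with earlier results of these data known. Summed signals add 2 to the power of scaled log2 values over a list. Alternatives were other background corrections, scalings, filters, probe rules, fits and array assignments.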

Additional observations from a re-analysis of the deposited data

Results flagged for a closer look

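In 9 cases the response to shIno80 differed between days by limma. From day 2 to day 4 the log2 difference was 0.69 for Hist1h1c, 0.92 for Hist1h1d, 0.69 for Hist1h2ba, 0.63 for Hist1h2bk, 0.60 for Hist1h2bm and 0.53 for Hist3h2bb, all upward, and −1.10 for Hist1h1b. The Hist1h2bk, Hist1h2bm and Hist3h2bb probes share letters and are not separate. From day 4 to day 6 it was 1.39 for Hist1h1c and −0.70 for H2afy3.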

How the results depend on the processing

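Direction and side of the threshold were kept by 2180 of the single-gene values recomputed under the alternatives; 131 kept the direction without passing, 43 passed newly and 18 changed sign. Counts that moved by over 1.5 times are given by setting. In every case the cause was not tested, beyond the fewer arrays or genes that a setting uses. With normexp, clustered genes higher were 0 at day 2 and 1 at day 4, clustered lower 1 at day 4 and 1 at day 6, variants lower 0, 0 and 3 at days 2, 4 and 6, and changed responses 0 for clustered genes in both steps and 0 for variants from day 4 to 6. Median scaling gave 3 clustered genes higher and 5 variants lower at day 4, and 0 changed responses for clustered genes from day 2 to 4 and for variants from day 4 to 6. Quantile normalization gave 2 clustered genes and 1 variant higher at day 2, 7 clustered genes lower and 1 variant higher at day 6, and 0 changed variant responses from day 4 to 6. The value table gave 0 variants lower at day 2, 6 clustered genes lower at day 6, and 2 clustered and 0 variant responses changed from day 4 to 6. Without the filter, 3 clustered responses changed from day 2 to 4 and 0 variant responses from day 4 to 6. Asking for signal on all 12 arrays gave 2 and 5 variants lower at days 2 and 4. Counting every probe gave 1 clustered probe lower at day 2, 1 variant probe higher at day 4 and 1 at day 6, 6 and 15 variant probes lower at those days, and 1 changed variant response from day 2 to 4. The mean of a gene's probes gave 1 clustered gene lower at day 2, 1 variant higher at day 4 and 1 at day 6, 2 clustered responses changed from day 4 to 6, and H2afy at 1.23 at day 6. The higher variant counts of both these settings come from the dim H2afy probe. It was kept through the shIno80 arrays of day 6 alone, so those counts are no test of a rise. A fit of each day's 4 arrays gave 0 clustered genes higher and 0 variants lower at day 2.

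Same-numbered arrays of a day deviated together with r of 0.2942, 0.1176 and 0.0839 at days 2, 4 and 6, so the numbers were not treated as pairs. With the replicate number as a block, 1 clustered gene was lower at day 2, 3 and 5 variants were lower at days 2 and 4, 2 variant responses changed from day 2 to 4, and 2 clustered and 3 variant responses changed from day 4 to 6.

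With arrays assigned by their scanner files, clustered genes higher were 0, 0 and 0 at days 2, 4 and 6, clustered lower 0 and 0 at days 4 and 6, variants lower 0, 0 and 0, and changed responses 0. Each group then mixes arrays of both hairpins by the value table, so this setting does not measure how stable the calls are. The signs turned for Hist1h1d (−0.14) and H3f3a (0.035) at day 4. At day 6 they turned for Hist1h1b (0.0089), Hist1h1c (−0.043), Hist1h2ba (−0.029), Hist1h2bc (−0.037), Hist1h2bk (−0.060), Hist1h4i (−0.12), H1f0 (0.17), H2afj (0.023), H2afv (0.0066), H2afy (0.11) and H2afy3 (0.019). In the response from day 2 to 4 they turned for Hist1h1c (−0.017) and Hist1h1d (−0.30), and from day 4 to 6 for Hist1h1c (−0.11) and H2afy3 (0.033).

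Leaving out 1 array at a time gave, at days 2, 4 and 6, 1 to 1, 6 to 7 and 7 to 7 clustered genes higher and 0 to 0, 1 to 3 and 8 to 15 lower. Variants lower numbered 0 to 1, 1 to 6 and 7 to 10, and variants higher 0 to 0. The lowest day 4 variant count came without the second shNT or second shIno80 array of day 4, and the highest without either shNT array of day 2. Changed clustered responses were 1 to 6 from day 2 to 4 and 1 to 1 from day 4 to 6, and variant responses 0 to 2 and 0 to 1. With 2 arrays a group, the number of arrays limits the precision.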
